A study of Mus musculus with 26 samples.

Results

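The translation initiation factor genes of this series are the genes whose mouse symbol starts with Eif1, Eif2, Eif3, Eif4, Eif5 or Eif6, without the eIF2 kinase genes (Eif2ak) and the Y-linked Eif2s3y. They were taken by name from the platform annotation, not by their values, and each gene was represented by its probe set with the highest mean among the probe sets that list a single gene. This gave 42 genes of 18193. Of these, 41 passed the filter on low signals and were tested. Eif4a3, which codes for the core helicase of the exon junction complex, had signals between 7.78 and 87.7 on a dim probe set and was not tested. Probe sets that list several genes were not used: 3 of Eif3j1 with Eif3j2, 1 of Eif4ebp3 with Ankhd1, 1 of Eif1a with Gm4027 and BB287469, and 1 of Eif4a3 with Gm5576, so the dim probe set is not all that the array holds for Eif4a3. Eif3j1, Eif3j2, Eif4ebp3, Eif1, Eif2s1, Eif3g and Eif4g1 were not analysed here.

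Affymetrix expression arrays had been hybridised with total RNA of immortalized mouse embryonic fibroblasts (MEFs), embryonic connective tissue cells adapted to permanent culture. There were 3 parental lines, called WA, WB and WC, and each had received 1 of 3 pBabe retroviral vectors: one with human c-myc, one with v-src, or pBabe-puro with no insert. c-myc codes for a growth-promoting transcription factor, and v-src for the tyrosine kinase that makes Rous sarcoma virus transforming. Every combination of line and vector had 3 arrays, apart from v-src in WB, which had 2 (replicate 1 was not analysed here), so that 9 arrays carried c-myc, 8 v-src and 9 the empty vector. All cells were immortalized and all had been infected, the controls included. Each line is 1 culture line per vector, and the sources used here do not say how it was immortalized or whether replicate arrays came from separate cultures, so a p-value within a line rests on array-to-array spread that may be technical only.

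In cap-dependent initiation, eIF4F binds the 5′ cap through eIF4E, unwinds the leader with the helicase eIF4A and holds both on the scaffold eIF4G. eIF3, a complex of many subunits, joins that scaffold to the small ribosomal subunit, which carries eIF1, eIF1A, eIF5 and the ternary complex of eIF2, GTP and initiator tRNA to the start codon. eIF2B recharges eIF2 with GTP, eIF5B joins the large subunit, and the 4E-BP proteins (Eif4ebp genes) hold eIF4E back until mTORC1 phosphorylates them. Genes of the translation machinery are among the best-known targets of Myc, and Eif4e is a classic one in fibroblasts.

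The deposited values were MAS5 signals on a linear scale. On all 26 arrays the mean of the signals was 500 once the highest and the lowest 2% were set aside, so every change below is relative to the rest of the array, and fewer cells of a kind and less RNA per cell cannot be told apart. Across genes, which are not independent replicates, r was between 0.960 and 0.983 for arrays of one group. Relative to their group mates, 2 arrays correlated less well with their own group, WA empty replicate 3 and WC c-myc replicate 1. Several counts of calls and several single results, not all, are given with and without both. Fibroblast markers were bright: Col1a2 lay between 14605 and 29472 and Vim between 18636 and 30301, although 3 of 10 such markers fell with c-myc and 5 of 10 with v-src. The summed signal of the 10 was 95864 to 114054 with c-myc, 86543 to 104419 with v-src and 109892 to 170856 with the empty vector, and the part of this shift in the results was not tested. The summed signal of 6 macrophage and blood markers lay between 718 and 1432 with c-myc, 839 and 1320.0 with v-src and 622 and 1291 with the empty vector, and none was called. For 5 endothelial markers the sums were 348 to 595 with c-myc, 364 to 595 with v-src and 301 to 581 with the empty vector, with Pecam1 no higher than 68.6. For 5 epithelial markers they were 1082 to 3961 with c-myc, 1842 to 7017 with v-src and 942 to 3383 with the empty vector, mostly from Epcam (97.2 to 5624 on single arrays). None of these 5 was called, and their part in the results was not tested. Myc, whose mouse probes may miss the human sequence of the vector, was lower with c-myc (log2 change -2.66, SE 0.43, adjusted p = 0.00751), and the difference of Src with v-src did not pass the test (0.30, SE 0.18, adjusted p = 0.313). The ratio of the 3′ to the 5′ Gapdh control probe sets was 0.776 to 0.848 with c-myc, 0.812 to 0.843 with v-src and 0.776 to 0.812 with the empty vector.

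Which initiation factor genes change when c-myc is added was asked first, over the 3 lines. With c-myc, 16 of the 41 tested genes rose and 1 fell. The 16 were subunits of eIF3 (7 genes), Eif4b and Eif4e of the cap-binding machinery, the eIF4E inhibitor gene Eif4ebp2, Eif2a, Eif2s3x, Eif2b1, Eif1ad, Eif5 and Eif6, and the 1 that fell was Eif4ebp1. The rises were of moderate size, from 0.24 for Eif3a to 0.79 for Eif2a on the log2 scale. Here and below a change is the difference of log2(signal + 23), which understates the change of dim genes, and a gene is called when its limma p, adjusted by Benjamini-Hochberg over all 13018 genes tested, is below 0.05. Of the initiation factor genes 39.0% rose and 2.44% fell with c-myc, against 10.0% and 9.76% of all 13018 genes. The members' median change was 0.27, against 0.04 for all genes tested, and 34 of 41 members had a change above 0 (54.6% of all genes did). In 29 members (70.7%) the change was above 0 in each of the 3 lines, as in 30.9% of all genes.

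**Figure D1:**
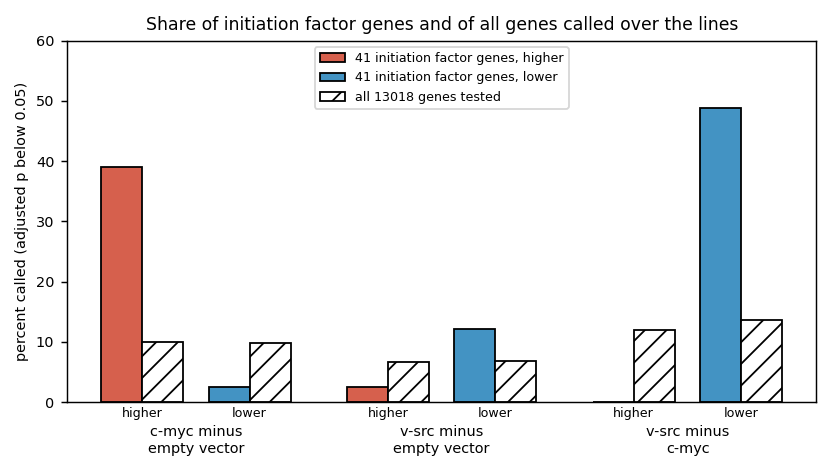
Percent of genes called (adjusted p below 0.05, vertical axis) over the 3 lines, among the 41 initiation factor genes tested (filled bars, red for higher and blue for lower) and among all 13018 genes tested (hatched bars), for c-myc minus empty vector, v-src minus empty vector and v-src minus c-myc. The tallest filled bars are 39.0% higher with c-myc than with the empty vector and 48.8% lower with v-src than with c-myc.

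The largest rise was that of Eif2a (chr3:58525821-58557501, all coordinates of genes being those of GRCm38.p6), which codes for a single-chain factor that can bring initiator tRNA to the ribosome apart from eIF2. Its c-myc arrays had signals of 1365, 1261 and 1128 in WA, 1331, 1079.8 and 1100.3 in WB, and 1138, 1152 and 1176 in WC. The empty vector arrays had 766, 567 and 680.4 in WA, 732, 751 and 792 in WB, and 572, 657 and 623 in WC. The lowest c-myc array stood above the highest empty vector array of any line. The change over the lines was 0.79 (SE 0.12, adjusted p = 0.00561), 1.73-fold, and it was 0.88 for WA, 0.61 for WB and 0.88 for WC, called in each. A second probe set of Eif2a also rose, by 0.72.

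Eif4ebp2 (chr10:61428491-61452790), whose product is a 4E-BP, came next. The c-myc arrays had signals of 2643, 2907 and 3067 in WA, 2472, 2220.2 and 2192 in WB, and 2669.7, 2313 and 2672 in WC. The empty vector arrays had 1505, 1474 and 1645 in WA, 1705, 1536 and 1729 in WB, and 1609.7, 1705 and 1779 in WC. All c-myc arrays lay above all empty vector arrays, and the change was 0.64 (SE 0.11, adjusted p = 0.00799), 1.56-fold, with the largest difference in WA (0.89 for WA, 0.46 for WB and 0.58 for WC). Its 3 other probe sets above the filter rose by 0.44, 0.52 and 0.89. Eif4ebp1 (chr8:27260327-27275656), which codes for the best-studied 4E-BP, moved the other way. Its c-myc arrays had signals of 6771, 7080.4 and 7236 in WA, 6456, 6574 and 4908 in WB, and 6141, 6437 and 5715 in WC. Its empty vector arrays had 7989, 9343 and 9973 in WA, 9381, 9458 and 9723 in WB, and 7795, 6933 and 6602 in WC. Within each line every c-myc array lay below every empty vector array. The change was -0.42 (SE 0.12, adjusted p = 0.0419), and it was called in WA and WB but not in WC (-0.37 for WA, -0.68 for WB and -0.22 for WC). The Eif4ebp1 call over the lines sat near the threshold: it was lost after leaving out WC empty replicate 1 (adjusted p = 0.0649), WA v-src replicate 3 (0.0510) or WC v-src replicate 1 (0.0506), and without both arrays named above (-0.40, adjusted p = 0.0510). Of its 2 other probe sets one was called (-0.75, adjusted p = 0.0245) and one was not (-0.35, adjusted p = 0.139). The third binder of eIF4E, Eif4enif1, which carries eIF4E into the nucleus and to processing bodies, was not called (0.37, SE 0.11, adjusted p = 0.055), although its c-myc arrays lay above the empty vector arrays in each line.

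In the cap-binding complex and its helpers, 2 of 9 tested genes rose, Eif4b and Eif4e. Eif4b (chr15:102073773-102097173), the cofactor of the eIF4A helicase, had c-myc means of 8852 ± 320.2 for WA, 7873 ± 516 for WB and 9993 ± 317 for WC (mean ± SD of 3 arrays, here and below; 2 arrays for v-src in WB). The empty vector means were 6175 ± 279 for WA, 6160.4 ± 321 for WB and 6981 ± 426 for WC. No c-myc array overlapped the empty vector arrays of its line, and the change was 0.46 (SE 0.08, adjusted p = 0.00885). Eif4e (chr3:138526191-138559696), the cap-binding protein, had signals of 7192, 6622 and 6981 in WA, 8653, 7768 and 7443 in WB, and 6854, 7306 and 7963 in WC with c-myc. With the empty vector it had 5894, 5786 and 6276 in WA, 6117, 6124 and 6498 in WB, and 5178, 5861 and 5337 in WC. Here too the vectors did not overlap within any line, and Eif4e rose by 0.33 (SE 0.07, adjusted p = 0.0181), 1.26-fold. Of its 3 other probe sets 1 was called (0.42, adjusted p = 0.0213), and 2 were not (0.41 and 0.31, adjusted p = 0.137 and 0.155).

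The helicase gene Eif4a1 did not pass the test (0.13, SE 0.06, adjusted p = 0.149). Its means were 15923 ± 1383 for WA, 15159.9 ± 579.7 for WB and 13166 ± 362 for WC with c-myc, against 14758 ± 1957 for WA, 13129 ± 834 for WB and 12598 ± 954 for WC with the empty vector. The arrays overlapped in WA and WC. The 6 others that were not called had log2 differences between -0.06 and 0.23: 0.23 for Eif4e2, which codes for a cap-binding repressor, 0.16 for Eif4h, 0.11 for Eif4g2, 0.05 for Eif4g3, -0.04 for Eif4a2 and -0.06 for Eif4e3. Probe sets of Eif4h disagreed: of 4 others above the filter, 1 was called higher with c-myc (0.27, adjusted p = 0.0311) and 1 lower (-0.37, adjusted p = 0.0310).

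**Figure D2:**
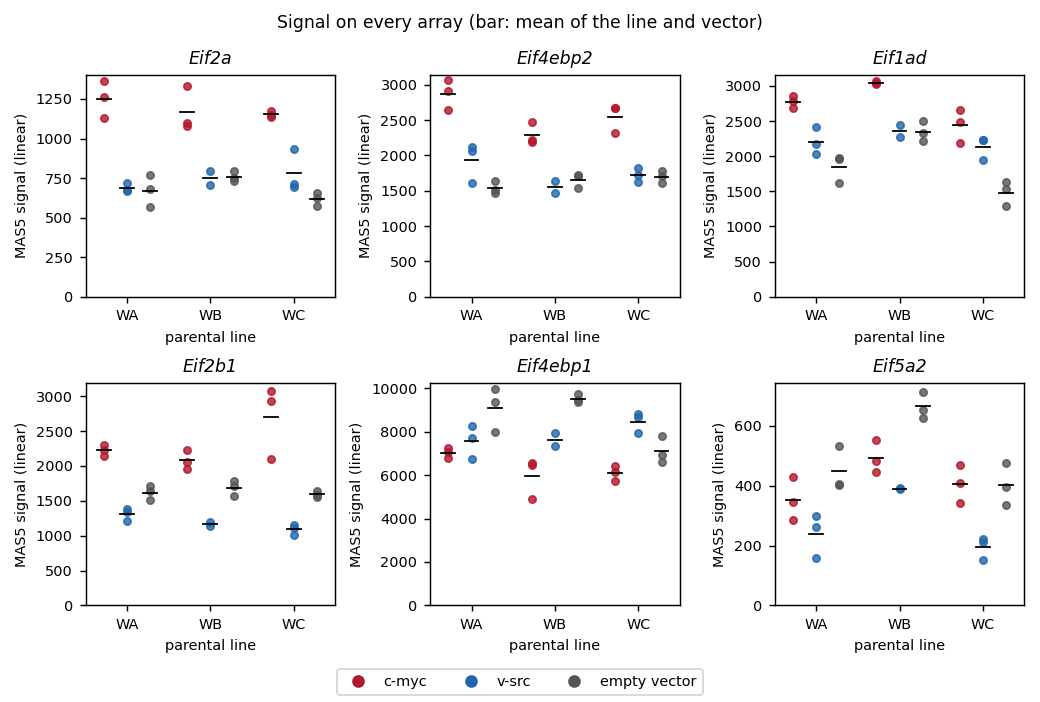
MAS5 signal (linear, from 0) of 6 initiation factor genes on every array, by parental line, with c-myc in red, v-src in blue and the empty vector in grey, and a bar at the mean of each line and vector. Eif2a, Eif4ebp2, Eif1ad and Eif2b1 have all c-myc arrays above the empty vector arrays of their line, Eif4ebp1 has them below, and Eif5a2 and Eif2b1 have all v-src arrays below.

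eIF3, the role with the most tested genes, held the most called members. Of its 11 genes 7 rose (Eif3a, Eif3b, Eif3d, Eif3i, Eif3k, Eif3l and Eif3m), against 10.0% of all genes, and none fell. The median change of the 11 was 0.29. Eif3m (chr2:104999656-105017027) had means of 3654 ± 115 for WA, 3443 ± 246 for WB and 3667 ± 246 for WC with c-myc. With the empty vector the means were 2916 ± 150.4 for WA, 2656 ± 219.8 for WB and 2229 ± 204 for WC. The change was 0.47 (SE 0.10, adjusted p = 0.019) over the lines and 0.32 for WA, 0.37 for WB and 0.71 for WC, with no overlap in any line. The other tested probe set of Eif3m was not called (0.45, adjusted p = 0.0714).

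The core subunit gene Eif3b (chr5:140419305-140443358) had c-myc means of 7687 ± 374 for WA, 7572 ± 284 for WB and 7523 ± 619 for WC. Its empty vector means were 6559 ± 589.7 for WA, 5741 ± 256 for WB and 5508 ± 477 for WC. In each line the arrays were apart, and Eif3b changed by 0.36 (SE 0.08, adjusted p = 0.0184). Eif3k, a peripheral subunit, averaged 5851 ± 187 for WA, 4187 ± 183 for WB and 5644 ± 287 for WC with c-myc, against 4466 ± 180.4 for WA, 3409 ± 108 for WB and 4462 ± 216 for WC with the empty vector, a change of 0.34 (SE 0.08, adjusted p = 0.0222). Eif3l averaged 7438 ± 591 for WA, 7825 ± 249.7 for WB and 7592 ± 557 for WC with c-myc, against 6046 ± 612 for WA, 6528 ± 406 for WB and 5614 ± 506 for WC with the empty vector, a change of 0.33 (SE 0.07, adjusted p = 0.0131). The WB mean of Eif3k was the lowest of the 3 lines under every vector. Eif3d, the subunit that can itself bind a cap, rose by 0.32 (adjusted p = 0.0339), Eif3i by 0.29 (0.0157) and Eif3a, the largest subunit, by 0.24 (0.0345). Leaving out WC empty replicate 3 ended the Eif3a call (0.21, adjusted p = 0.0715), as did testing without a filter (adjusted p = 0.0674), and none of its 3 other probe sets was called (0.15, 0.24 and 0.41, adjusted p = 0.151, 0.0596 and 0.0719). Testing without a filter ended the Eif3d call as well (adjusted p = 0.0516). The other probe set of Eif3l was not called (0.46, adjusted p = 0.0659).

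The remaining 4 eIF3 genes were not called: Eif3h, with 0.24 (SE 0.07, adjusted p = 0.0577), Eif3f with 0.14, Eif3e with 0.05 and Eif3c with -0.09. Eif3c codes for a core subunit beside Eif3a and Eif3b, and its c-myc effect differed between lines (limma F test, adjusted p = 0.0111). The c-myc means of Eif3c were 7812 ± 404 for WA, 5773 ± 388 for WB and 8049.6 ± 570.0 for WC. The empty vector means were 8362 ± 321 for WA, 7122 ± 509.8 for WB and 7364 ± 402 for WC. Only in WB did all c-myc arrays lie below the empty vector arrays, and the changes were -0.10 for WA, -0.30 for WB and 0.13 for WC. Its 3 other probe sets, none of them called, had differences over the lines between -0.28 and -0.07.

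Of the 5 genes grouped by symbol under start codon selection (those starting with Eif1, and Eif5), Eif1ad and Eif5 rose. Eif1ad (chr19:5366813-5371518) codes for a protein with an eIF1A-like domain and is in this group by its symbol only. Its c-myc arrays had signals of 2781, 2692 and 2849.9 in WA, 3027, 3073 and 3039 in WB, and 2187, 2489 and 2660.4 in WC. Its empty vector arrays had 1967, 1962 and 1614 in WA, 2219, 2497 and 2332 in WB, and 1526, 1284 and 1629 in WC. WB had the highest and WC the lowest signals under both vectors, and within each line the vectors did not overlap. The change was 0.56 (SE 0.11, adjusted p = 0.0129), 1.47-fold. Eif5, the GTPase activator of eIF2, rose by 0.28 (SE 0.06, adjusted p = 0.0201), although none of its 4 other probe sets was called (0.21 to 0.26). Eif1ax (0.18), Eif1a (0.11) and Eif1b (-0.05) were not called on their kept probe sets, and of 2 others of Eif1ax 1 was called higher (0.44, adjusted p = 0.0237).

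For eIF2 itself, Eif2s3x, the gene of the GTP-binding subunit, rose by 0.33 (SE 0.06, adjusted p = 0.013), and Eif2s2, the gene of the beta subunit, was not called (adjusted p = 0.996), its arrays overlapping in all lines. Of the 5 eIF2B subunit genes, Eif2b1 (chr5:124570214-124579131) was called. Its c-myc arrays had signals of 2143, 2224 and 2302 in WA, 2228, 1957 and 2051 in WB, and 2101, 3083 and 2931 in WC. Its empty vector arrays had 1637, 1507 and 1712 in WA, 1788, 1566 and 1718 in WB, and 1577, 1645 and 1559 in WC. The arrays were apart in each line, and the change was 0.49 (SE 0.12, adjusted p = 0.029), 1.41-fold. Eif2b4 had c-myc means of 1326 ± 67.8 for WA, 1049.7 ± 132 for WB and 1712 ± 156 for WC, against empty vector means of 1078 ± 95.4 for WA, 794 ± 113 for WB and 1047 ± 189 for WC. Its arrays did not overlap in any line either, yet it was not called (0.47, SE 0.16, adjusted p = 0.0723). Eif2b3 (0.36) and Eif2b5 (0.27) were not called either.

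Eif2b2 was the other member whose c-myc effect differed between lines (limma F test, adjusted p = 0.0111). With c-myc its means were 2958 ± 67.7 for WA, 3149 ± 164 for WB and 2614 ± 226 for WC. With the empty vector they were 3431 ± 209 for WA, 2493 ± 64.4 for WB and 2206 ± 415 for WC. In WA all c-myc arrays lay below the empty vector arrays, in WB all lay above them, and the changes were -0.21 for WA, 0.33 for WB and 0.26 for WC. These were 2 of 41 members (4.88%), against 16.2% of all 13018 genes with a c-myc effect that differed between lines. Over the lines Eif2b2 was not called on this probe set (0.13), and of its 2 others 1 was called higher (0.45, adjusted p = 0.0243, and 0.39, adjusted p = 0.0533).

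Eif6, which keeps the ribosomal subunits apart until initiation, had c-myc means of 7214 ± 369.5 for WA, 7078 ± 61.8 for WB and 5880.4 ± 669 for WC. The empty vector means were 5422 ± 584 for WA, 6292 ± 543 for WB and 4348 ± 134 for WC. Eif6 rose by 0.34 (SE 0.09, adjusted p = 0.0339), a call lost without WB empty replicate 1 (0.31, adjusted p = 0.0599). The other probe set of Eif6 was not called (0.32, adjusted p = 0.0991). Eif2d (0.43, SE 0.13, adjusted p = 0.0579) and Eif5a2 (-0.24) were not called. Eif5b and Eif5a were not called on their kept probe sets (0.30, SE 0.09, adjusted p = 0.0561, and 0.16, SE 0.05, adjusted p = 0.0598), and each was called higher on its second one (0.40, adjusted p = 0.0316, and 0.25, adjusted p = 0.0144).

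**Figure D3:**
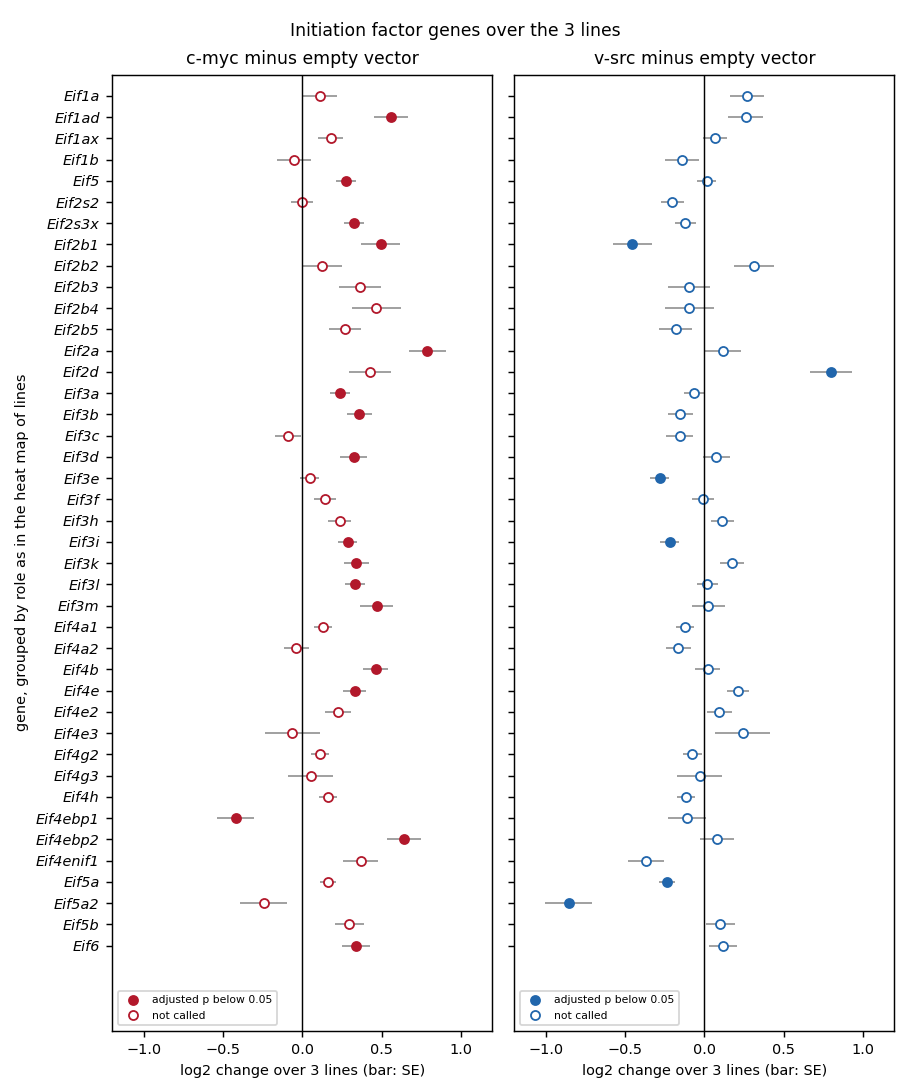
Log2 change over the 3 lines (horizontal axis, bars ± 1 SE) of each of the 41 tested initiation factor genes, for c-myc minus empty vector (left, red) and v-src minus empty vector (right, blue), with filled points where the adjusted p was below 0.05. On the left 16 filled points lie right of 0 and 1 lies left of it, and on the right 1 lies right and 5 lie left.

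Fitted over 3 lines, these calls depended on all of them. With 2 lines the fit called 0 members without WA, 5 without WB and 0 without WC. In the same order, 23, 20 and 18 members had an unadjusted limma p below 0.05. The number of all genes at that unadjusted level was not counted, here and below, so such counts have no background. The median change of the members was 0.28, 0.24 and 0.26. Calls among all 13018 genes fell as well, from 2576 with 3 lines to 466, 1339 and 414. Without an intensity trend in the prior variance 6 members were called, all higher (1974 of all genes, in either direction). Without both arrays that stood apart 19 members were called, all higher (2468 of all genes, in either direction).

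Within each line, where the spread is that between arrays, c-myc calls among the members were 21 higher and 1 lower in WA (19.0% and 18.5% of all genes), 21 higher and 2 lower in WB (12.5% and 14.5% of all genes), and 23 higher and 0 lower in WC (18.6% and 18.6% of all genes). In WC, 25 members had an unadjusted limma p below 0.05 in either direction. The fall in WA was that of Eif4ebp1, and those in WB were Eif4ebp1 and Eif3c. Of the 16 genes called higher over the lines, 15 were called higher in each of the 3 lines, Eif6 being the exception in WB. A total of 27 members were called higher in at least 1 line. The shares of all genes called higher in at least 1 line or in each line were not counted, so these numbers have no background. Every c-myc array exceeded every empty vector array of its own line in all 3 lines for 17 members (41.5%, against 9.03% of all genes), and the reverse held for Eif4ebp1 alone (2.44%, against 9.33%).

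**Figure D4:**
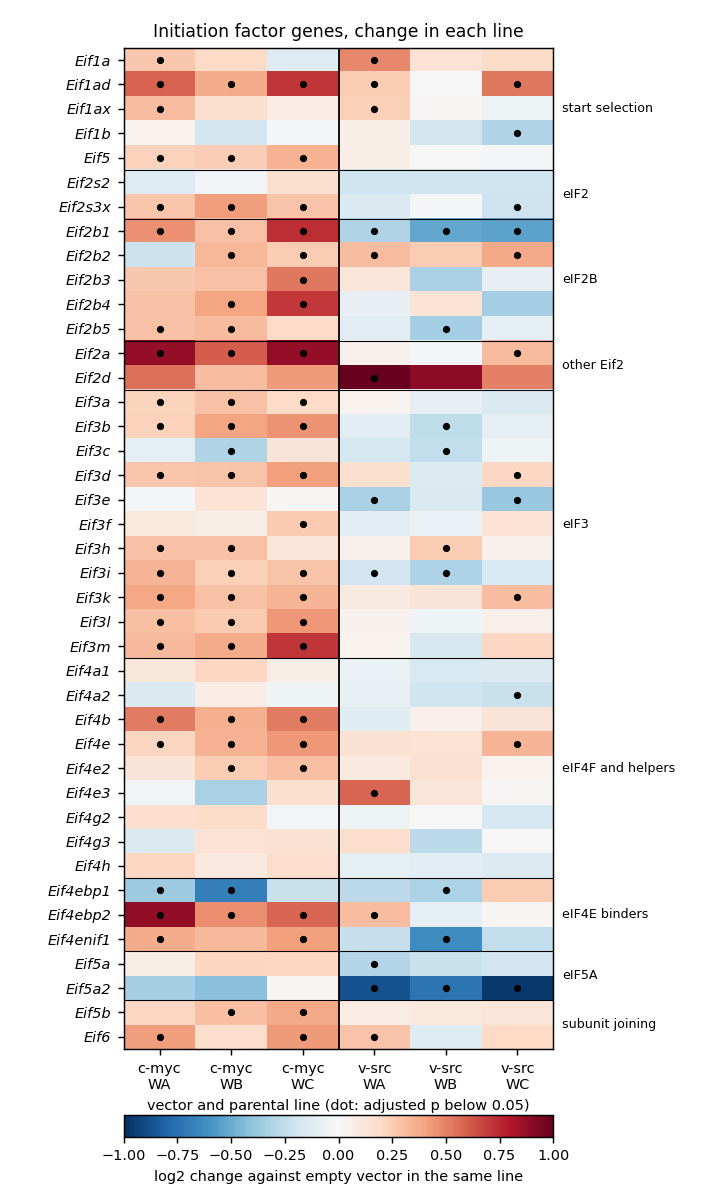
Log2 change against the empty vector arrays of the same line (colour, red higher and blue lower, capped at 1 in either direction) for the 41 tested initiation factor genes (rows, grouped by role), with c-myc and v-src in WA, WB and WC as columns and a dot where the adjusted p was below 0.05. The c-myc columns hold 21, 21 and 23 dots on red cells, and the v-src columns hold 8, 1 and 6.

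Promoters were read for the members because many of them moved together with c-myc, a factor that binds CACGTG as a dimer with Max. The RefSeq promoter table (GRCm38.p6, 250 bases before to 50 after each start) held 33 of the 42 members. CACGTG, read on both strands, occurred in 9 of these 33 (27.3%), against 8.09% of the 27025 genes in the table. It occurred in 3 of the 14 members that rose with c-myc over the lines (21.4%: Eif3a, Eif3k and Eif4e) and in 6 of the 19 others (31.6%: Eif1b, Eif3f, Eif4a1, Eif4h, Eif5a and Eif5a2). The AP-1 motif TGANTCA occurred in 2 of the 33 (6.06%), Eif3f and Eif3l, against 8.97% of all genes, and in Eif3f it overlaps CACGTG. A match is a run of letters and not a measured binding site, and a start missing from the table was not searched. The 2 members with the largest rises, Eif2a (chr3:58525571-58525870, plus strand) and Eif4ebp2 (chr10:61452620-61452919, minus strand), had no CACGTG in their windows. The promoter of Eif4ebp1, the member that fell, was not in the table. These are printed beside the only 2 windows among the members with a pair of CACGTG motifs (in capitals): the downstream start of Eif4e (chr3:138527018-138527317, plus strand), a gene that rose, and Eif5a2 (chr3:28781027-28781326, plus strand), which did not. Eif4e and Eif5a2 were chosen for print after the motif counts and values were seen.
Eif2a: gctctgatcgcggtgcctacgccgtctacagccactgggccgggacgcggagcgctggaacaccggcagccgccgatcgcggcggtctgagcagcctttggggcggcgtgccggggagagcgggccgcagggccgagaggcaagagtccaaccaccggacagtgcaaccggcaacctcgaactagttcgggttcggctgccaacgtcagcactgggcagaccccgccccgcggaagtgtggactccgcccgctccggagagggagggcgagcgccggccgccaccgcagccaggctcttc
Eif4ebp2: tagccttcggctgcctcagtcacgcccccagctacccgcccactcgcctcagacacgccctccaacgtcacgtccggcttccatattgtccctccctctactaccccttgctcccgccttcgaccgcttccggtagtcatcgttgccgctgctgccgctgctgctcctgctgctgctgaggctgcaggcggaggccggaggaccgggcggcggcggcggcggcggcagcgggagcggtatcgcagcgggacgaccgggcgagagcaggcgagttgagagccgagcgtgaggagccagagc
Eif4e: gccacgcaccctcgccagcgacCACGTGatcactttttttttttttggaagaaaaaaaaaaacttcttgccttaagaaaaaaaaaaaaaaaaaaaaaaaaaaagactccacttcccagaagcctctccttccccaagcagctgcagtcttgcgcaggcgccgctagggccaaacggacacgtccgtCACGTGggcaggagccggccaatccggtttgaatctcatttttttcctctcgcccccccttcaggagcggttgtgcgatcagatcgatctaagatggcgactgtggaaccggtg
Eif5a2: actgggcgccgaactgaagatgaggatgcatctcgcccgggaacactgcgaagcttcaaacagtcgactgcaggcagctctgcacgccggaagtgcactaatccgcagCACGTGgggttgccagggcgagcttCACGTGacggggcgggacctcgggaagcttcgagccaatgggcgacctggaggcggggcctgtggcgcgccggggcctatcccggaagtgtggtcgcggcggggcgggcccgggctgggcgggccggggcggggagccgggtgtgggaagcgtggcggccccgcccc
The motifs begin at -228 and -64 from the start of Eif4e and at -142 and -117 from that of Eif5a2. The upstream start of Eif4e had none.

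The same question for v-src gave fewer calls and, on the values as deposited, mostly the other direction. With v-src, 5 of the 41 genes fell (Eif2b1, Eif3e, Eif3i, Eif5a and Eif5a2) and 1 rose (Eif2d), which is 12.2% and 2.44%, against 6.79% and 6.64% of all genes tested. After quantile normalization the calls were 2 higher and 2 lower. Without both arrays that stood apart they were 1 higher and 2 lower. The members' median change was -0.03, against 0.02 for all genes. After quantile normalization it was 0.06, against -0.0005 for all genes, so the side on which the members lay depended on the normalization. The comparison uses the same empty vector arrays as that of c-myc.

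Eif5a2 (chr3:28781032-28798846), which codes for the less widely expressed of the 2 eIF5A proteins, fell most. eIF5A carries the hypusine modification and relieves stalled ribosomes. The v-src arrays had signals of 158, 261 and 300.1 in WA, 388 and 393 in WB, and 152, 222 and 211 in WC. The empty vector arrays had 402, 534 and 407 in WA, 627, 714 and 654 in WB, and 334, 397 and 477 in WC. In each line all v-src arrays lay below all empty vector arrays. The change was -0.86 (SE 0.15, adjusted p = 0.00992), 1.81-fold lower, and it was called in every line (-0.87 for WA, -0.73 for WB and -0.97 for WC). A second probe set was not called (-0.47, adjusted p = 0.0781). With c-myc the arrays of Eif5a2 had 429, 285 and 346 in WA, 481, 444 and 552 in WB, and 469, 408 and 342 in WC, and the difference was -0.24 (not called).

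Its widely expressed paralog Eif5a (chr11:69916712-69921958) had v-src means of 15551 ± 474 for WA, 14729.9 ± 1527 for WB and 13858 ± 461 for WC. The empty vector means were 19262 ± 3119 for WA, 17178 ± 1001 for WB and 15902 ± 1567 for WC. The arrays did not overlap in any line, and Eif5a changed by -0.24 (SE 0.05, adjusted p = 0.0218). After quantile normalization the difference was -0.09 (adjusted p = 0.244), and its second probe set was not called (-0.14, adjusted p = 0.108).

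Eif2b1, whose product is the alpha subunit of eIF2B, had signals of 1383, 1334 and 1216 in WA, 1139 and 1197 in WB, and 1109, 1009.9 and 1155 in WC with v-src. All of them were below the empty vector arrays of the same line given above. Eif2b1 changed by -0.45 (SE 0.12, adjusted p = 0.0488), 1.37-fold lower, and was called lower in each line (-0.30 for WA, -0.52 for WB and -0.54 for WC). Over the lines its adjusted p lay just below the threshold, and the call was lost under 11 of the 26 omissions of a single array, the adjusted p reaching 0.0907 without WC c-myc replicate 1 and 0.104 without both arrays named above. None of the other eIF2B genes was called on its kept probe set (-0.18 for Eif2b5, -0.10 for Eif2b3, -0.09 for Eif2b4 and 0.31 for Eif2b2). Eif2b2 was called higher with v-src on its 2 other probe sets (0.55 and 0.47, adjusted p = 0.0159 and 0.0359).

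In all, 2 eIF3 genes were lower with v-src, Eif3e and Eif3i, and none was higher. Eif3e (chr15:43250040-43282736) had v-src means of 9492 ± 63.7 for WA, 9713 ± 179.6 for WB and 11035 ± 347 for WC. Its empty vector means were 12000.1 ± 1958 for WA, 10753 ± 290.1 for WB and 14380.3 ± 1510.2 for WC. The v-src arrays were the lower ones in each line, and the change was -0.28 (SE 0.06, adjusted p = 0.0238). It was not called after quantile normalization (-0.15, adjusted p = 0.107) or without both arrays named above (-0.24, adjusted p = 0.0504), and of 2 other probe sets 1 was called (-0.36, adjusted p = 0.0116) and 1 was not (-0.22, adjusted p = 0.109). Eif3i (chr4:129591974-129600648) had v-src means of 8074 ± 243 for WA, 7098 ± 119 for WB and 8368 ± 303 for WC, against 9228 ± 204 for WA, 8818 ± 425 for WB and 9302 ± 214 for WC with the empty vector. Its change of -0.22 (SE 0.06, adjusted p = 0.0485) was lost as a call under 18 of the 26 omissions of a single array, and its second probe set was not called (0.07, adjusted p = 0.682).

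Eif2d (chr1:131153172-131187659) codes for a protein that can deliver tRNA to the ribosome without eIF2. Its v-src arrays had signals of 687, 1045 and 1124 in WA, 1541 and 859.6 in WB, and 809, 949.9 and 1273 in WC. Its empty vector arrays had 582, 641 and 250.2 in WA, 618, 651 and 563 in WB, and 866, 472 and 813 in WC. The arrays were apart in WA and WB and overlapped in WC, and WA empty replicate 3 was the lowest of all. Eif2d changed by 0.80 (SE 0.13, adjusted p = 0.00882), 1.74-fold. Of 3 other probe sets bright enough to test, none was called (0.09, 0.02 and 0.57, adjusted p = 0.619, 0.947 and 0.191).

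Eif4e was not called with v-src (0.21, SE 0.07, adjusted p = 0.0908), although its v-src arrays, with 6711, 6712 and 6528 in WA, 6999 and 6796 in WB, and 6599, 7348 and 6801 in WC, lay above the empty vector arrays in each line. Of its other probe sets 1 was called higher with v-src (0.73, adjusted p = 0.0310) and 2 were not (0.07 and -0.17). Eif4ebp1 was not called over the lines (-0.11, SE 0.12, adjusted p = 0.578), and its v-src effect differed between lines (limma F test, adjusted p = 0.013). Its v-src arrays had 7696, 6757 and 8261 in WA, 7319 and 7949 in WB, and 7929, 8659.6 and 8805 in WC. Against the empty vector arrays given above, all v-src arrays lay lower in WB and higher in WC, and the changes were -0.26 for WA, -0.32 for WB and 0.25 for WC. Eif1ad also differed between lines (adjusted p = 0.0429), a call lost under 15 of the 26 omissions of a single array (adjusted p up to 0.144 without WB v-src replicate 3). Its v-src arrays had 2030.1, 2419 and 2176 in WA, 2437 and 2271 in WB, and 1940.1, 2233 and 2226 in WC, and its changes were 0.26 for WA, 0.00 for WB and 0.52 for WC. These 2 are 4.88% of the members, against 13.5% of all genes with a v-src effect that differed between lines. Eif1ax was not called with v-src on its kept probe set (0.07), while its 2 others fell by 0.64 and 0.79 (adjusted p = 0.00782 and 0.0103). Eif2s2 (-0.87, adjusted p = 0.00660), Eif4h (-0.62, adjusted p = 0.00644) and Eif4g2 (-0.44, adjusted p = 0.0142) were called lower with v-src on 1 other probe set each, and not on the kept one. So was Eif4ebp2 (-0.41, adjusted p = 0.0374), whose kept probe set had 0.08.

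Within lines, v-src calls among the members were 8 higher and 5 lower in WA (13.2% and 14.1% of all genes), 1 higher and 8 lower in WB (12% and 13.5% of all genes), and 6 higher and 6 lower in WC (13.8% and 15.1% of all genes). After quantile normalization they were 11 higher and 3 lower in WA, 4 and 8 in WB, and 9 and 5 in WC. Single arrays moved these counts: in WA 5 were called in either direction without WA empty replicate 3 and 6 without WA v-src replicate 2, against 13 with all arrays, and in WB 3 without WB v-src replicate 2 and 5 each without WB v-src replicate 3 or WB empty replicate 3, against 9. Eif2b1 and Eif5a2 were lower in each line, and no member was called higher in each. All v-src arrays lay below the empty vector arrays of their line in all 3 lines for 6 members (14.6%, against 9.07% of all genes): Eif2b1, Eif2s2, Eif3e, Eif3i, Eif5a and Eif5a2. They lay above for 2 (4.88%, against 7.47%), Eif2b2 and Eif4e. With a line left out, v-src calls over the remaining 2 lines numbered 0 without WA, 0 without WB and 1 without WC, where 10, 9 and 9 members had an unadjusted limma p below 0.05. Among all 13018 genes the calls numbered 756, 517 and 562, against 1749 with 3 lines.

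Set directly against c-myc, v-src cells had lower signals for 20 of 41 initiation factor genes (48.8%, against 13.7% of all genes). Higher signals were called for none (11.9% of all genes). At an unadjusted limma p below 0.05 there were 27 members, a count without a background of all genes. After quantile normalization 16 were lower and 1 was higher. Eif4ebp1 was called higher on 1 of its 2 other probe sets (0.62, adjusted p = 0.0379) and not on the other (0.29, adjusted p = 0.197). The lower genes included 6 of 11 of eIF3, 4 of 5 of eIF2B, 3 of 9 of eIF4F and its helpers, both eIF5A genes and 2 of the 3 binders of eIF4E. On the kept probe sets Eif2b1 differed most, by -0.95 (SE 0.12, adjusted p = 0.00221), 1.93-fold lower with v-src. In WA its highest v-src array had 1383 and its lowest c-myc array 2143. Other probe sets above the filter were not called for Eif2a, Eif2b5, Eif3i, Eif3l and Eif3m. All were called lower for Eif2s3x, Eif3e, Eif4b, Eif5a and Eif5a2, and some for Eif3a, Eif4a1, Eif4ebp2, Eif4h and Eif5. Eif1ax, not called on its kept probe set, was lower on both others (-1.08 and -0.79, adjusted p = 0.000864 and 0.00613). Eif1ad, Eif2s2, Eif4e and Eif4g2 were called lower on another probe set only.

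Eif4enif1 followed, with v-src arrays of 1125, 1297 and 1096 in WA, 831 and 952 in WB, and 1002, 821 and 692 in WC. The c-myc arrays had 1781, 1853 and 1736 in WA, 1541, 1753 and 1949.9 in WB, and 1189, 1397 and 1384 in WC. All v-src arrays lay below the c-myc arrays of their line, and the difference was -0.74 (SE 0.11, adjusted p = 0.00392). Eif2a had v-src arrays of 669, 675 and 721 in WA, 708 and 794 in WB, and 935, 695 and 715 in WC, all below its c-myc arrays, and a difference of -0.67 (SE 0.12, adjusted p = 0.00591). Eif5a2 differed by -0.61 (SE 0.15, adjusted p = 0.0203), Eif4ebp2 by -0.56 (SE 0.11, adjusted p = 0.00852) and Eif2b4 by -0.56 (SE 0.16, adjusted p = 0.0339). The v-src means were 1929 ± 278 for WA, 1554 ± 115 for WB and 1718 ± 99.7 for WC for Eif4ebp2, and 1018 ± 85.7 for WA, 873 ± 108 for WB and 819.9 ± 123 for WC for Eif2b4. The Eif2b4 call was lost without WB v-src replicate 3 (-0.52, adjusted p = 0.0579). With 2 lines, 9 members were called lower without WA, 12 without WB and 7 without WC. Among all 13018 genes 1670, 1914 and 1226 were called in either direction, against 3325 with 3 lines.

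The lines themselves differed in these genes without any insert. Among empty vector arrays, 9 members were higher and 5 lower in WA than in WB (background 12.7% and 13.4% of all genes), 15 higher and 5 lower in WA than in WC (14.7% and 15.1%), and 10 higher and 9 lower in WB than in WC (16.5% and 16.0%). After quantile normalization these were 8 and 8, 12 and 7, and 14 and 8, and without WA empty replicate 3 the WA and WC comparison had 13 calls in either direction, against 20 with it. The widest gap between WA and WB was in Eif4g3, which codes for the second eIF4G scaffold. It had empty vector signals of 1479.6, 1587 and 1436 in WA, 716, 604 and 708 in WB, and 1156, 929.8 and 1076 in WC. WA and WC did not overlap WB, and WA exceeded WB by 1.13 (SE 0.09, adjusted p = 2.16e-09). Eif4e3, an atypical cap-binding protein, ran the other way with 215, 139 and 133 in WA, 369, 392 and 328 in WB, and 469, 315 and 436 in WC. The difference of WA from WB was -1.08 (SE 0.16, adjusted p = 2.15e-05) and that from WC was -1.22 (SE 0.16, adjusted p = 3.26e-06). Eif2b2 was higher in WA than in WC by 0.65 (SE 0.10, adjusted p = 1.11e-05), and Eif1ad was higher in WB than in WC by 0.66 (SE 0.10, adjusted p = 7.92e-06).

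Eif2s3x (chrX:94188709-94212651), an X-linked gene known in mouse to escape X inactivation and to have a Y-linked copy, Eif2s3y, was lower in WB under every vector. Its c-myc means were 9749 ± 225 for WA, 7621 ± 411 for WB and 10269.5 ± 606 for WC. Its v-src means were 7278 ± 293 for WA, 5661 ± 22.7 for WB and 7288 ± 303 for WC, and its empty vector means 8065 ± 734 for WA, 5701 ± 130.1 for WB and 8400.4 ± 460.3 for WC. Among empty vector arrays WA exceeded WB by 0.50 (SE 0.07, adjusted p = 5.45e-06), and the difference of WB from WC was -0.56 (SE 0.07, adjusted p = 7.75e-07). The genes of the sex chromosomes set WB apart as well: Xist, the RNA that coats the inactive X, had empty vector means of 5268 for WA, 235 for WB and 5957 for WC, and Eif2s3y had 8.52 for WA, 463 for WB and 18.8 for WC, with Kdm5d at 30.8 for WA, 309 for WB and 60.2 for WC and Uty at 41.3 for WA, 223 for WB and 44.3 for WC. Line and these levels cannot be told apart with 3 lines. For the other X-linked member, Eif1ax, the c-myc means were 5674 ± 228 for WA, 5495 ± 642 for WB and 5792 ± 189 for WC. Its v-src means were 5417 ± 164 for WA, 4920.2 ± 92.3 for WB and 5328 ± 168 for WC, and its empty vector means 4586 ± 213 for WA, 4889 ± 75.5 for WB and 5545 ± 787 for WC. WB was thus lowest by its mean with c-myc, where its arrays overlapped the others, and with v-src, but not with the empty vector, where WA was lowest. With the empty vector WA differed from WC by -0.26 (SE 0.09, adjusted p = 0.0207).

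Other genes of translation, listed by function, were read in the same fits. For these short lists the background is that of all 13018 genes. With c-myc 10.0% of them were called higher and 9.76% lower, and with v-src 6.64% and 6.79%. Of the 6 genes for eIF2 kinases and the phosphatase subunits that act on eIF2, none rose and 1 fell with c-myc, and 2 fell with v-src. Eif2ak3, the kinase PERK of the endoplasmic reticulum, had c-myc means of 624 for WA, 524 for WB and 679 for WC. The v-src means were 579 for WA, 721 for WB and 849 for WC, and the empty vector means 874 for WA, 1015 for WB and 1119 for WC. The log2 change of Eif2ak3 was -0.71 with c-myc (adjusted p = 0.011) and -0.48 with v-src (adjusted p = 0.0494). Ppp1r15b, a targeting subunit of the eIF2 phosphatase, fell with v-src by 0.49 (adjusted p = 0.0306), while Eif2ak1, Eif2ak2, Eif2ak4 and Ppp1r15a passed neither test.

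Among genes that act after initiation, 3 of 5 tested for termination and recycling rose with c-myc: Etf1 (0.39, SE 0.09, adjusted p = 0.0209), the release factor eRF1, Gspt1 (0.38, SE 0.08, adjusted p = 0.0165), its GTPase partner, and Abce1 (0.38, SE 0.07, adjusted p = 0.0114), which splits the ribosome. None passed with v-src. Of 7 elongation genes, Eef1d rose with c-myc (0.33, adjusted p = 0.0475), and Eef2k, the kinase that inhibits eEF2, fell with v-src (-0.69, adjusted p = 0.02). Eef1a1 (0.08) and Eef2 (0.06) were not called with c-myc. Poly(A)-binding proteins and their partners had 4 of 6 called higher with c-myc and none with v-src.

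Pabpc4 had c-myc means of 6867 for WA, 6287 for WB and 7317 for WC, against 4461 for WA, 3819 for WB and 4572 for WC with the empty vector, and rose by 0.67 (SE 0.09, adjusted p = 0.00427). Paip1, which links poly(A)-binding protein to eIF4A and eIF3, rose by 0.64 (adjusted p = 0.0118), Paip2 by 0.45 (0.018) and Pabpn1 by 0.35 (0.00885). Pabpc1 was not called (0.08, adjusted p = 0.328). Of 9 regulators of eIF4F, Larp1, which binds capped 5′ terminal oligopyrimidine messages, rose with c-myc (0.40, adjusted p = 0.0285), and the helicase gene Ddx3x fell with v-src (-0.23, adjusted p = 0.0497). Mtor (-0.01), Rptor (0.02) and Pdcd4, an inhibitor of eIF4A (0.81, SE 0.31, adjusted p = 0.108), were not called with c-myc. Neither mitochondrial initiation factor gene was called (Mtif2 0.14 with c-myc and -0.03 with v-src, Mtif3 0.44 with v-src).

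**Figure D5:**
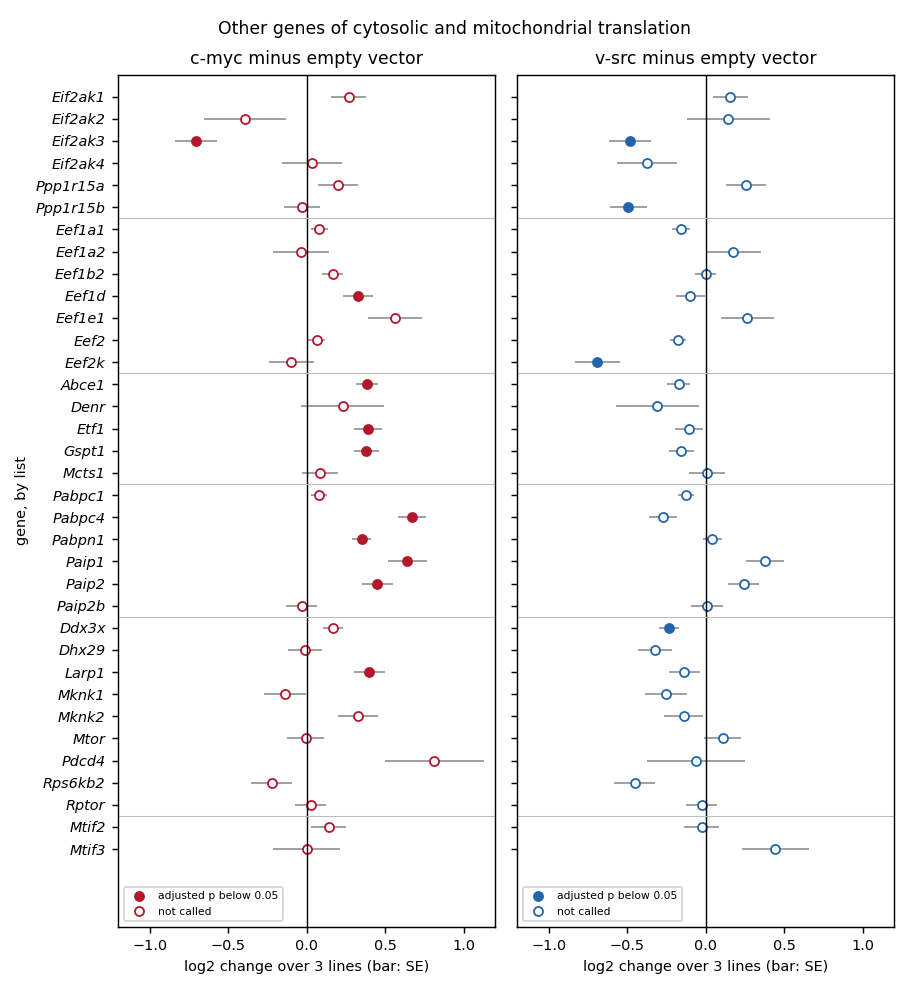
Log2 change over the 3 lines (horizontal axis, bars ± 1 SE) of 35 other translation genes, for c-myc minus empty vector (left, red) and v-src minus empty vector (right, blue), with filled points where the adjusted p was below 0.05. Lines divide, from the top, eIF2 kinases and phosphatase subunits, elongation, termination and recycling, poly(A)-binding proteins and partners, regulators of eIF4F and mitochondrial initiation factors. Filled points on the left lie right of 0 except Eif2ak3, and all filled points on the right lie left of 0.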

How the data were processed

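Per the labels' protocols, total RNA was extracted with RNeasy columns and biotin-labelled for Affymetrix arrays, and per the submitters' processing notes MAS5 made the probe set values. The authors deposited these as intensity values on a linear scale, 1 per probe set and array; the software version and detection calls are not given in the sources used here. All arrays had a trimmed mean of 500, so no further scaling was applied. The platform annotation gave 1 gene to 34958 of 45101 probe sets and several to 932, which were not used. Each gene kept its single-gene probe set with the highest mean, values became log2(signal + 23), where 23 is the 20th percentile of all values, and 13018 of 18193 genes with a mean above the 40th percentile were tested.

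Over the lines, arrays of a line and vector were averaged and the 9 averages fitted with line and vector as terms in limma 3.58.1 (R 4.3.3; lmFit and eBayes with an intensity trend), so n is 3 lines and each gene has 1 SE for all 3 comparisons. Within lines, between lines and for the F tests of whether a vector's effect differed between lines, the 26 arrays were fitted as 9 means. All p-values were adjusted by Benjamini-Hochberg over 13018 genes, with a threshold of 0.05. The scripts were tested on simulated data. These had no variation of the vector effect between lines, so they do not test the error rate over the lines. Nothing in the sources used here says whether same-numbered arrays of different groups share a culture or day.

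Array values are given for members called over the lines (at most 12 per vector), the 6 most different between v-src and c-myc, those with an F test call, and Eif4e, Eif4ebp1, Eif4a1, Eif5a and Eif6. Members of other roles are given by their difference. The members, lists and motifs were chosen with earlier results of these data known. Promoters and gene coordinates are from RefSeq (GRCm38.p6), and motifs were counted in Python 3.11.15. Alternatives were quantile normalization, no filter, other pseudocounts, the mean of probe sets, no trend, arrays as separate values, blocks, and omission of each array or line. Another probe set was tried over the lines only. The number of arrays limits the precision.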

Additional observations from a re-analysis of the deposited data

Results flagged for a closer look

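A vector's effect differed between the 3 lines for 4 initiation factor genes, by the limma F test across the lines. With c-myc these were Eif2b2 and Eif3c, each with an adjusted p of 0.0111. The Eif2b2 differences from the empty vector were -0.21 for WA, 0.33 for WB and 0.26 for WC, and those of Eif3c were -0.10, -0.30 and 0.13. With v-src they were Eif4ebp1 (adjusted p = 0.0130), with -0.26 for WA, -0.32 for WB and 0.25 for WC, and Eif1ad (adjusted p = 0.0429), with 0.26, 0.00 and 0.52. With the main settings both shares, 4.88% of the members, lie below the 16.2% and 13.5% of all genes tested. Under other settings the counts reached 8 members for c-myc and 4 for v-src. The shares of all genes under those settings were not counted, so the comparison is not shown to hold there. The calls of Eif2b2, Eif3c and Eif4ebp1 held under all 34 alternatives run for them, and that of Eif1ad was lost under 19. These alternatives included the mean of probe sets but no single other probe set.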

How the results depend on the processing

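Counts over the lines rest on 3 lines. Members called for c-myc against the empty vector, v-src against the empty vector and v-src against c-myc numbered 17, 6 and 20. They were 0, 0 and 9 without WA, 5, 0 and 12 without WB, and 0, 1 and 7 without WC. There an unadjusted limma p below 0.05 was held by 23, 10 and 24, by 20, 9 and 20, and by 18, 9 and 22. Those unadjusted counts have no background of all genes. Of all 13018 genes 2576, 1749 and 3325 were called with 3 lines. With 2 lines these were 466, 756 and 1670 without WA, 1339, 517 and 1914 without WB, and 414, 562 and 1226 without WC. Members called numbered 6, 2 and 13 without an intensity trend (1974, 1389 and 2764 of all genes). With arrays as separate values, which counts each array as independent, they were 30, 18 and 33 (5801, 4953 and 6102 of all genes). With a random block for line and vector v-src against the empty vector had 13 (3321 of all genes) and without a filter 3 (1531 of 18193). Without both arrays that stood apart, an alternative chosen after seeing the data, it had 3 (1436 of all genes). Without a filter c-myc against the empty vector had 14, all higher (2155 of 18193 called in either direction). Leaving out those 2 arrays also left 6 for v-src in WA and 13 for WA against WC.

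Deviations from the group means did not correlate more between same-numbered arrays than between others. The mean r was -0.010 for same-numbered arrays (100 pairs, -0.183 to 0.212) and 0.005 for others. Of the 26 arrays 1 correlated best with its own number. Such correlations cannot show whether same-numbered arrays share a culture or day. With the replicate block added to separate arrays the counts were 29, 18 and 33 (5683, 4817 and 5995 of all genes).

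Genes whose effect differed between lines, 2 for each vector, were 6 for c-myc and 4 for v-src after quantile normalization, 4 and 4 for probe sets averaged per gene, and 8 and 4 without both arrays. For v-src they were 1 without a filter, 1 without a trend and 4 with the replicate block. The shares of all genes under these settings were not counted.

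With each array left out in turn, the ranges were 16 to 21 for c-myc, 4 to 6 for v-src and 19 to 22 for v-src against c-myc over the lines. For c-myc they were 15 to 24 in WA, 17 to 26 in WB and 20 to 25 in WC. For v-src they were 5 to 14 in WA, 3 to 12 in WB and 10 to 17 in WC. Between lines they were 12 to 15 for WA and WB, 13 to 21 for WA and WC and 15 to 20 for WB and WC, and for the F tests 2 to 4 for c-myc and 1 to 4 for v-src. The F count for c-myc was 4 without WA empty replicate 3, WB c-myc replicate 1 or WC c-myc replicate 1, and that for v-src was 4 without WC empty replicate 1, WC c-myc replicate 1 or WC c-myc replicate 3.

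Changes of direction are listed only where the main or the alternative result was called, and other changes of sign are left out. Direction changed for Eif1ax with v-src, 0.07 on the kept probe set, -0.45 with the mean of probe sets and -0.64 and -0.79 on its others. It also changed on another probe set for Eif4ebp2 with v-src (-0.41), Eif3i with v-src (0.067), Eif4h with c-myc (-0.37), and, v-src against c-myc, for Eif2b5 (0.25) and Eif5 (0.20). After quantile normalization Eif4ebp1 with c-myc had an adjusted p of 0.0524, and without a filter 0.0617. The cause was not tested. Probe sets below the filter were not run.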
